A study of Mus musculus with 5 samples.

Results

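Transcription factors that set effector against memory fate in CD8+ T cells were followed in OT-I cells recovered from mouse melanomas after PD-L1 blockade. The 10 genes were chosen by symbol: Tbx21 (T-bet), Eomes (Eomesodermin), Prdm1 (Blimp-1), Id2, Id3, Zeb2, Bcl6, Runx3, Bhlhe40 and Rora (RORα). These 10 are among 23337 genes listed in each library, and all 10 were among the 11299 genes with enough counts to be tested. The anti-PD-L1 group, with 2 libraries, came from hosts given an antibody to PD-L1, which binds the inhibitory receptor PD-1 on T cells. The Control IgG group, with 3 libraries, came from hosts given a rat IgG2b against KLH, an antigen foreign to the mouse. Each mouse received 200 µg of antibody into the peritoneum after T cell transfer, on day 3 and on day 6. In both groups the T cells came from C57BL/6J CD45.1 OT-I mice aged 6 to 12 weeks, whose transgenic receptor recognises an ovalbumin peptide. They were stimulated in culture through CD3 and CD28, expanded with interleukin-2 for 5 to 6 days, and injected into hosts with a B16-OVA tumor, a melanoma line that makes ovalbumin. Cells were recovered on day 8, or earlier if a tumor reached 1.2 cm, and live cells positive for CD8 and CD45.1 were sorted. Tumors of several mice of a group were pooled before the sort, so a library is a pool and not a mouse, and p-values measure the spread between pools. The comparison asked which of these factors differ between tumor-infiltrating T cells of the anti-PD-L1 and Control IgG groups.

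T-bet and Eomesodermin are T-box factors that activate interferon-gamma and cytotoxic genes in CD8+ T cells. Blimp-1 is a zinc finger repressor that promotes terminal effector differentiation, and Bcl6 is a repressor that opposes it, each being known to repress the gene of the other. Id2 and Id3 have no DNA-binding region of their own and hold E proteins away from DNA, Id2 being linked to effector and Id3 to memory and progenitor cells. Zeb2 acts with T-bet in terminal effector cells, Runx3 maintains the CD8 lineage and its cytotoxic and resident forms, Bhlhe40 is a helix-loop-helix repressor induced by receptor stimulation, and RORα is a nuclear receptor best known in innate lymphoid cells and type 17 T cells.

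The libraries held 11580960 and 12830485 counts in genes in the anti-PD-L1 group, against 9985943 to 12395682 in the Control IgG group. At these depths 3 counts correspond to 0.234 to 0.30 CPM, a gene's reads scaled to a common library total. The libraries numbered 1 stood apart, with 11977 genes detected in anti-PD-L1 replicate 1 and 11696 in Control IgG replicate 1, against 13564 in anti-PD-L1 replicate 2 and 13673 and 13801 in Control IgG replicates 2 and 3. The labels do not say whether a number marks a shared day or batch, so results are also given within the libraries numbered 1 and within the others. The libraries numbered 1 were also the least alike of all pairs, with a Pearson correlation of 0.909 across genes in log2 CPM. All 9 CD8 T cell markers were detected, with summed levels of 8030 to 9470 CPM in the anti-PD-L1 group and 7490 to 8450 CPM in the Control IgG group. The 8 natural killer cell markers summed to 75.0 and 29.9 CPM in anti-PD-L1 replicates 1 and 2, against 31.5 to 36.5 CPM in the controls, with Klra4 and Klra8 at 0 counts in every library and Ncr1 at no more than 0.234 CPM. Of this sum Fcer1g made up 63.5 and 17.3 CPM in the anti-PD-L1 libraries, against 19.4 to 23.4 CPM in controls, while Tyrobp stood at 7.69 and 9.82 CPM in anti-PD-L1 libraries, against 6.33 to 12.0 CPM in controls, and Klrb1c at 2.94 and 2.26 CPM in anti-PD-L1 libraries, against 2.2 to 5.03 CPM in controls. The 8 macrophage or monocyte markers summed to 72.5 and 115 CPM in anti-PD-L1 libraries, against 77.4 to 194 CPM in controls. The 8 dendritic cell markers summed to 71.9 and 141 CPM in anti-PD-L1 libraries, against 61.6 to 146 CPM in controls. The 7 B or plasma cell markers summed to 1.3 and 5.07 CPM in anti-PD-L1 libraries, against 3.61 to 6.49 CPM in controls, with Ebf1, Pax5 and Igj at 0 counts throughout. The 7 melanoma markers summed to 40.1 and 103 CPM in anti-PD-L1 libraries, against 4.03 to 300 CPM in controls. The part of these cells in the values below was not tested, and in a pool of cells fewer cells of a kind and less RNA per cell cannot be told apart.

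On build GRCm38, Tbx21 lies on chromosome 11 from 97098071 to 97115331 and Prdm1 on chromosome 10 from 44437177 to 44528501. Id2 lies on chromosome 12 from 25093799 to 25097140, and Bcl6 on chromosome 16 from 23965052 to 23988852, all 4 on the minus strand. Id3 lies on chromosome 4 from 136143497 to 136145755 and Eomes on chromosome 9 from 118478212 to 118486132, both on the plus strand. The factors act on each other's genes, so the 250 bases before the RefSeq transcription starts of the members were searched on both strands for 5 short motifs that members bind: CACGTG, the E-box of Bhlhe40, CACCTG, the E-box of Zeb proteins, TGTGGT, a Runx core, GAAAGT, a Blimp-1 core, and ACACCT, a T-box core. The promoter table held 14 starts for 9 of the 10 genes. Shown here are the 4 windows that held a match and contained no annotated exon base, each 5′ to 3′ on the gene's strand with the match in capitals, from RefSeq on GRCm38.p6.
Tbx21, chr11:97115332-97115581, minus strand: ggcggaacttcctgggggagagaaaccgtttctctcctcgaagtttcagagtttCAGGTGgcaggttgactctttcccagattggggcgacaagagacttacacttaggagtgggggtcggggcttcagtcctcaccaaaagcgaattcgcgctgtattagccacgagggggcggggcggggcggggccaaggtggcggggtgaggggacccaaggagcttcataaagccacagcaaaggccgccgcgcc
Prdm1, start within the gene as GENCODE gives it, chr10:44458749-44458998, minus strand: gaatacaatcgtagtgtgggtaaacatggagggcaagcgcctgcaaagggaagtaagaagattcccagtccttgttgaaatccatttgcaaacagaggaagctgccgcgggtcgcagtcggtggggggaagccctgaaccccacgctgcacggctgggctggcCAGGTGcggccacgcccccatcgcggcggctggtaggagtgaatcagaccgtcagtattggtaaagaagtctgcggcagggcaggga
Bcl6, first start, chr16:23988853-23989102, minus strand: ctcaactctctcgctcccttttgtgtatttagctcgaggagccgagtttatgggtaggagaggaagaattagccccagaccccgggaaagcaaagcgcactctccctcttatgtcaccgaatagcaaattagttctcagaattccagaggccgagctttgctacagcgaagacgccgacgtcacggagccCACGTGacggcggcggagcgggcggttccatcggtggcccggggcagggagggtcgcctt
Bcl6, start within the gene, chr16:23981284-23981533, minus strand: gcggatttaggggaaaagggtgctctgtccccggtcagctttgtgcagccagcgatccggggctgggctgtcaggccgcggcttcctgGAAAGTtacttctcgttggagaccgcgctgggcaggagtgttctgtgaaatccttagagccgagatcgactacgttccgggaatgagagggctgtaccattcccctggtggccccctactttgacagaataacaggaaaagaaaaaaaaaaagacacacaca
The Tbx21 and Prdm1 windows each held the Zeb E-box, read as CAGGTG on the gene's strand, beginning 196 and 87 bases before the start. The first Bcl6 window held the Bhlhe40 E-box 60 bases before the start, and the second held the Blimp-1 core 162 bases before it. Among all 32851 windows of this length, 17.2% held CACCTG, 6.02% held CACGTG, 12.3% held GAAAGT, 14.0% held TGTGGT and 11.8% held ACACCT. Among windows with annotated exon bases, which are not shown, one of Runx3 held 2 Runx cores and the Zeb E-box. Overlapping windows of Zeb2 held the Blimp-1 core. The windows of Id2, Id3, Eomes and Rora held none of the 5 motifs. A match describes letters in a window and is not a measured binding site.

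Levels were compared between genes as CPM per kilobase of exon, scaled by TMM factors, a normalization that equalises library composition. The anti-PD-L1 libraries kept Id2, Bhlhe40 and Tbx21 at the top of the 10, with Id2 at 459 and 194 CPM per kilobase in replicates 1 and 2, Bhlhe40 at 112 and 203, and Tbx21 at 142 and 120. In the controls the level averaged 169 ± 26.7 CPM per kilobase for Id2, 146 ± 35.3 for Bhlhe40 and 130 ± 18.2 for Tbx21 (SD, n = 3), and the control ranges of neighbours in this order overlapped. A gap followed. Id3 stood at 1.29 and 11.7 CPM per kilobase in the anti-PD-L1 libraries, against 20.7 ± 7.92 in controls. Runx3 stood at 20.4 and 14.4 in anti-PD-L1 libraries, against 13.3 ± 1.48 in controls, and Prdm1 at 21.6 and 11.8 in anti-PD-L1 libraries, against 9.05 ± 0.574 in controls. Eomes stood at 1.56 and 6.61 in anti-PD-L1 libraries, against 6.18 ± 1.72 in controls, and Bcl6 at 2.82 and 11.2 in anti-PD-L1 libraries, against 5.76 ± 0.757 in controls. Zeb2, at 1.22 and 2.06 in anti-PD-L1 libraries against 1.26 ± 0.293 in controls, and Rora, at 0.333 and 0.872 in anti-PD-L1 libraries against 0.590 ± 0.136 in controls, were the lowest of the 10 in all 5 libraries. In the controls the ranges of Id3 and Runx3 overlapped, as did those of Eomes and Bcl6, and the other neighbours from Tbx21 downward did not. Id3 was number 8 of the 10 in anti-PD-L1 replicate 1 and number 6 in replicate 2, against number 4 in each control. Exon length was the union over all annotated transcripts, 19942 bases for Zeb2 and 13071 for Rora, which lowers the values of genes with many alternative exons.

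None of the 10 factors passed an adjusted p of 0.05 in the quasi-likelihood test of edgeR. There 0% of the 11299 genes passed in either direction, and every member had an adjusted p of 0.9999. DESeq2 called 0.0265% of genes higher, 0% lower and none of the 10, and limma-voom called 0% of genes. At an unadjusted p under 0.05, 2 of the 10 were found, Prdm1 and Id2, both higher after anti-PD-L1, where 1.19% of all tested genes were higher and 2.13% were found in either direction. The anti-PD-L1 libraries exceeded all 3 controls for 1 member, Prdm1, as they did for 7.73% of all tested genes, and were below all 3 for 1 member, Id3, as they did for 9.57%. Fold changes were above 0 for 8 members and below 0 for 2, with a median log2 fold change of 0.20, against -0.02 over all tested genes. Of all tested genes 48.1% were above 0. The 2 anti-PD-L1 libraries differed from each other by a median of 1.05 on the log2 scale over the 10 members, against 0.41 over the 8140 tested genes whose mean log2 CPM reached 3. The 10 members were taken without that cut, so the 2 medians rest on unlike sets.

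**Figure D1:**
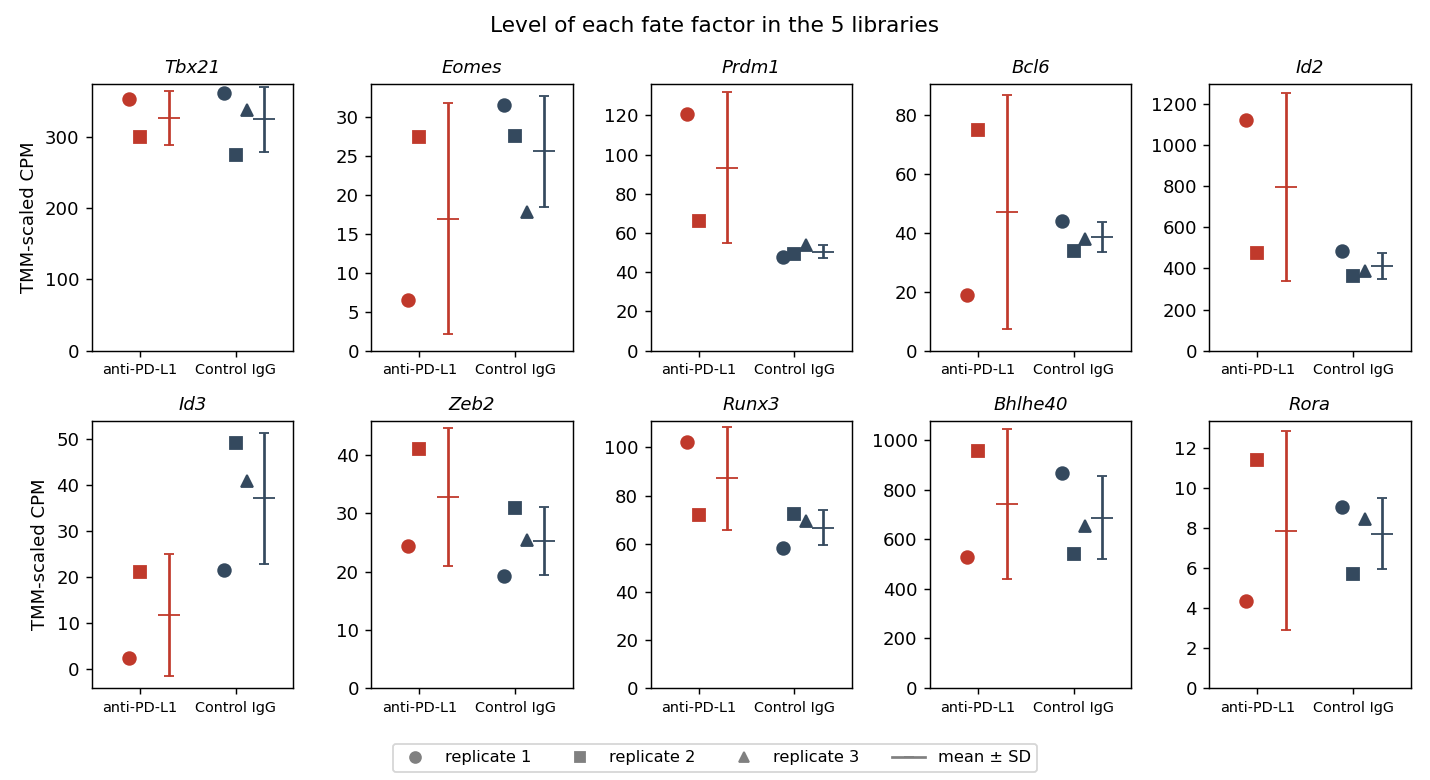
TMM-scaled CPM of the 10 factors (vertical axis, a separate linear scale for each gene) in 2 anti-PD-L1 libraries on the left and 3 Control IgG libraries on the right of each panel; symbols mark the replicate number and bars the mean ± SD. Both anti-PD-L1 points lie above all controls for Prdm1 and below all controls for Id3, and for Eomes and Bcl6 the anti-PD-L1 points lie far apart.

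Of the T-box factors, T-bet lay within the control range and Eomesodermin was low in a single library. Tbx21 stood at 353 and 300 CPM in anti-PD-L1 replicates 1 and 2, against 362, 274 and 337 CPM in Control IgG replicates 1, 2 and 3. The anti-PD-L1 values lay within the control range, and the log2 fold change was 0.01 ± 0.24 (SE), with an edgeR adjusted p of 0.9999 and an unadjusted p of 0.976. Its paralog Eomes stood at 6.49 and 27.5 CPM in anti-PD-L1 libraries, against 31.6, 27.6 and 17.8 CPM in controls. Replicate 2 lay within the controls, and replicate 1 was the lowest library, with 70 reads and an exact 95% binomial interval of 5.06 to 8.20 CPM that covers counting error only. The log2 fold change of Eomes was -0.59 ± 0.58, with an edgeR adjusted p of 0.9999, and 0.10 without anti-PD-L1 replicate 1.

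Blimp-1 had the smallest unadjusted p of the 10 in the edgeR test with all libraries, an order that changed under some other settings. Prdm1 stood at 121 and 66.1 CPM in anti-PD-L1 replicates 1 and 2, against 48.0, 49.4 and 54.1 CPM in the controls. The controls spanned 0.17 on the log2 scale, and the anti-PD-L1 libraries were both above that span. Its mean was 93.4 ± 38.6 CPM in anti-PD-L1 libraries (SD, n = 2), against 50.5 ± 3.20 CPM in controls (SD, n = 3). The log2 fold change was 0.89 ± 0.30 (SE), a 1.85-fold higher level, with an unadjusted p of 0.0182 and an edgeR adjusted p of 0.9999, and 8.59% of tested genes had a larger fold change in either direction. Leaving out anti-PD-L1 replicate 1 gave 0.39, and leaving out replicate 2 gave 1.29. Bcl6, the opposing repressor, stood at 18.9 and 75.1 CPM in anti-PD-L1 libraries, against 43.9, 33.8 and 38.1 CPM in controls. The 2 anti-PD-L1 libraries lay on opposite sides of the controls. Replicate 1 minus replicate 2 came to -1.98 on the log2 scale, while the controls spanned 0.38. The log2 fold change of Bcl6 was 0.29 ± 0.50 with an edgeR adjusted p of 0.9999, with 0.96 when anti-PD-L1 replicate 1 was left out and -0.997 when replicate 2 was.

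The inhibitors of E proteins had fold changes of opposite sign. Id2 stood at 1120 and 474 CPM in anti-PD-L1 replicates 1 and 2, against 485, 361 and 389 CPM in the controls. Replicate 1 lay above all controls and replicate 2 within them. Its log2 fold change was 0.95 ± 0.36 (SE), with an unadjusted p of 0.0299 and an edgeR adjusted p of 0.9999, and it was 0.20 without anti-PD-L1 replicate 1. Id3 stood at 2.32 and 21.0 CPM in anti-PD-L1 libraries, against 21.4, 49.0 and 40.8 CPM in controls. Both anti-PD-L1 libraries lay below every control, but replicate 2, with 282 reads, was next to Control IgG replicate 1, with 239, and their counting intervals of 18.6 to 23.6 and 18.7 to 24.3 CPM overlapped. Replicate 1 had 25 Id3 reads, with an interval of 1.5 to 3.42 CPM. Id3 had the largest log2 fold change of the 10 in size, -1.66 ± 0.79, with an unadjusted p of 0.0688 and an edgeR adjusted p of 0.9999, and 2.19% of tested genes had a larger one in either direction. Its unadjusted p was 0.0167 in DESeq2, 0.0228 in limma-voom, 0.00883 without a low-count filter and 0.005 with the replicate number as a block. The edgeR test gave 0.0658 with RLE size factors, another scaling, and 0.108 with library totals only. Without Control IgG replicate 1, 2 or 3 it gave 0.0617, 0.124 and 0.119. No adjusted p of Id3 passed the threshold under these settings. Without both libraries numbered 1, which leaves 1 anti-PD-L1 library, the log2 fold change of Id3 was -1.11. Leaving out anti-PD-L1 replicate 1 gave -0.82, and leaving out replicate 2 gave -3.96.

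For Zeb2 and Runx3, one anti-PD-L1 library exceeded the controls and the other did not. Zeb2 stood at 24.4 and 41.1 CPM in anti-PD-L1 replicates 1 and 2, against 19.2, 30.9 and 25.4 CPM in the controls, where replicate 2 was the highest library and replicate 1 lay within the controls. Its log2 fold change was 0.38 ± 0.35. Runx3 stood at 102 and 72.0 CPM in anti-PD-L1 libraries, against 58.3, 72.3 and 69.5 CPM in controls, where replicate 1 was the highest library and replicate 2 lay within the controls. Its log2 fold change was 0.39 ± 0.26 (edgeR adjusted p of 0.9999 for both). The antisense gene Zeb2os shares 653 exon bases with Zeb2, and the library chemistry does not mark the strand, so reads of the pair cannot be told apart.

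Bhlhe40 and Rora had fold changes near 0 that combined opposite values. Bhlhe40 stood at 527 and 957 CPM in anti-PD-L1 replicates 1 and 2, against 868, 541 and 655 CPM in the controls, so that one anti-PD-L1 library was the lowest of the 5 and the other the highest. The log2 fold change was 0.11 ± 0.33. Rora had the lowest counts, 47 and 153 reads in anti-PD-L1 libraries against 101, 61 and 110 reads in controls. Its level was 4.36 and 11.4 CPM in anti-PD-L1 libraries, against 9.03, 5.69 and 8.43 CPM in controls, again the lowest and the highest library. The log2 fold change was 0.03 ± 0.54 (edgeR adjusted p of 0.9999 for both). Over the 5 libraries Bhlhe40 and Rora were each other's nearest member, their centred log2 CPM differing by a root mean square of 0.20.

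**Figure D2:**
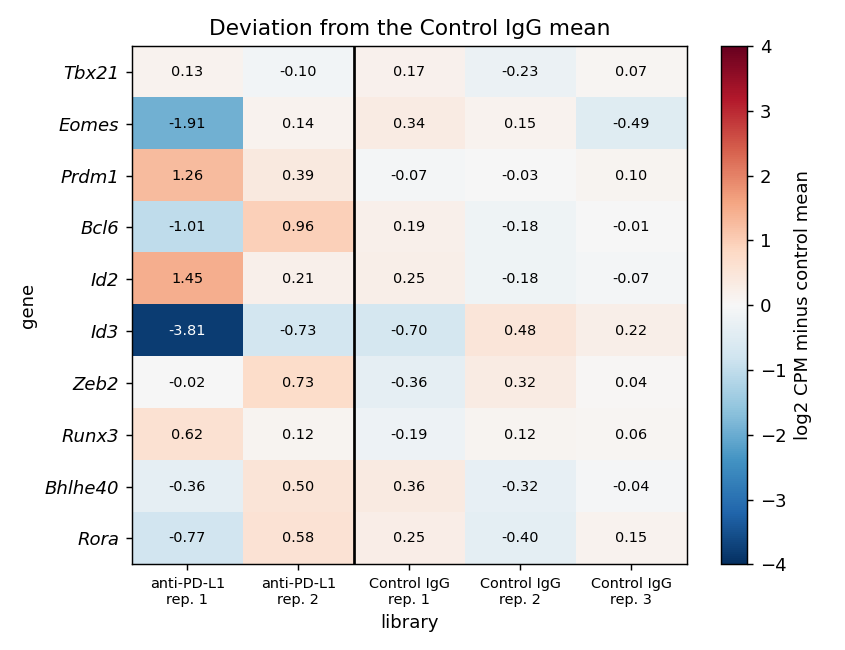
Log2 CPM of each factor minus its Control IgG mean, by library (columns, anti-PD-L1 left of the line and Control IgG right of it) and gene (rows), with blue below and red above the control mean. Anti-PD-L1 replicate 1 holds the extreme values, from -3.81 for Id3 to 1.45 for Id2.

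For 4 factors, the sign differed between the library subsets. Within the libraries numbered 1, anti-PD-L1 minus control on the log2 scale was 1.33 for Prdm1, 1.21 for Id2, 0.81 for Runx3, 0.34 for Zeb2 and -3.11 for Id3. Within the others, anti-PD-L1 replicate 2 minus the mean of Control IgG replicates 2 and 3 was 0.35 for Prdm1, 0.34 for Id2, 0.02 for Runx3, 0.55 for Zeb2 and -1.08 for Id3, the same sign for each of these 5. Eomes was at -2.25 in the libraries numbered 1 and 0.31 in the others, Bcl6 at -1.21 and 1.06, Rora at -1.02 and 0.70, and Bhlhe40 at -0.72 and 0.69. Tbx21 was at -0.04 and -0.02. Each of these subsets holds a single anti-PD-L1 library, so the difference between the subsets was not tested.

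**Figure D3:**
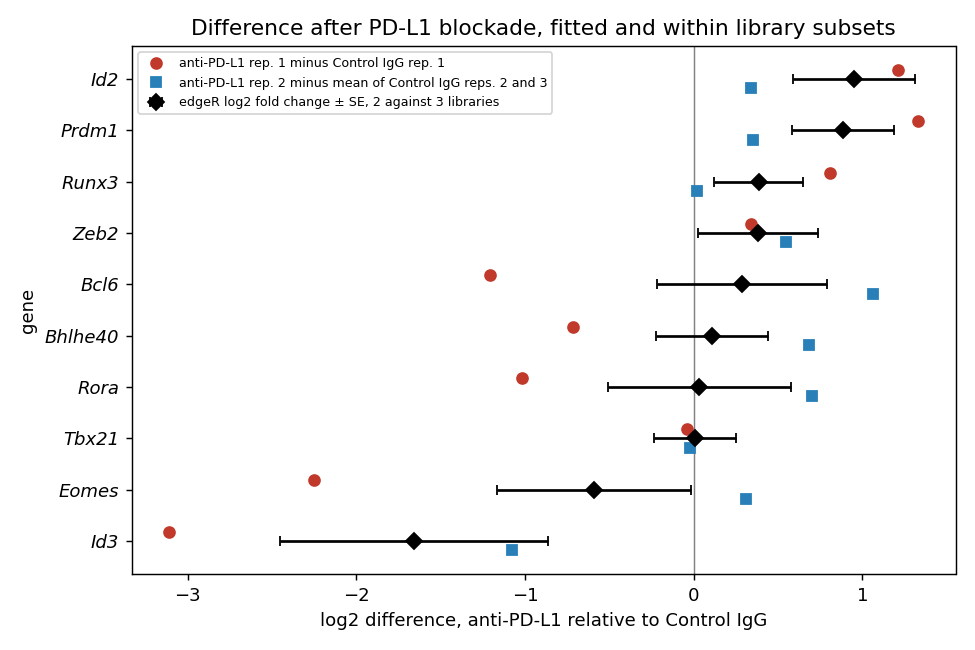
Log2 difference of anti-PD-L1 relative to Control IgG (horizontal axis) for each factor, with the edgeR estimate ± SE over all 5 libraries (black), anti-PD-L1 replicate 1 minus Control IgG replicate 1 (red circles) and anti-PD-L1 replicate 2 minus the mean of Control IgG replicates 2 and 3 (blue squares). Prdm1 and Id2 lie right of 0 and Id3 left of 0 by all 3 measures, whereas Bcl6, Bhlhe40, Rora and Eomes have red and blue points on opposite sides.

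Ratios of read counts within a library need no normalization. They set opposing factors against each other or, for Tbx21 and Eomes, paralogs. Id2 had 483 and 22.6 reads per Id3 read in anti-PD-L1 replicates 1 and 2, against 22.7, 7.37 and 9.53 in Control IgG replicates 1, 2 and 3. Only anti-PD-L1 replicate 1 lay outside the control range for this ratio. Prdm1 had 6.38 and 0.880 reads per Bcl6 read in anti-PD-L1 libraries, against 1.09, 1.46 and 1.42 in controls, so the anti-PD-L1 libraries lay on either side of the controls. Tbx21 had 54.4 and 10.9 reads per Eomes read in anti-PD-L1 libraries, against 11.4, 9.92 and 19.0 in controls, with replicate 2 inside the control range. In all 3 pairs the anti-PD-L1 libraries were further apart than any 2 controls. These ratios follow from the counts above and are given without a test.

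**Figure D4:**
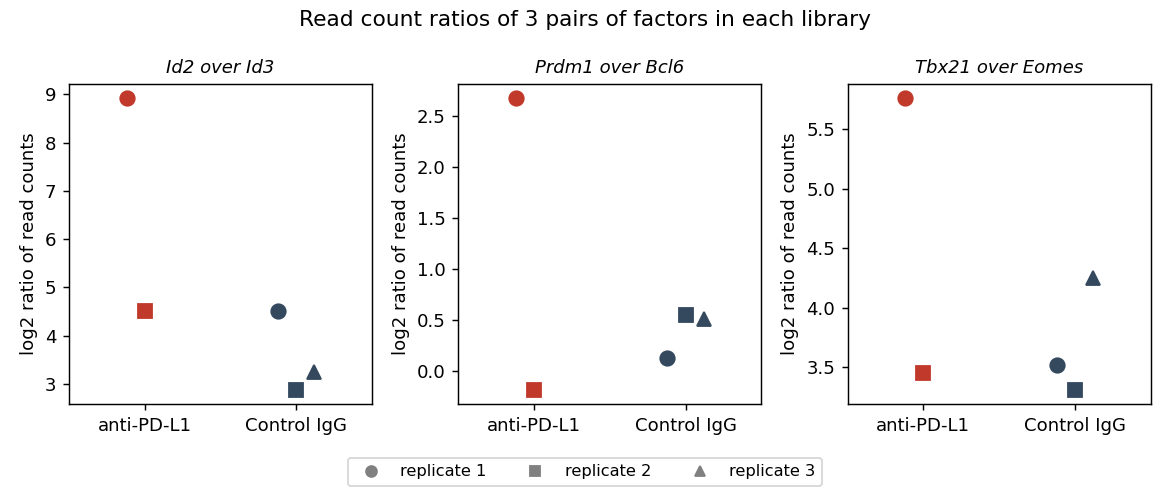
Log2 ratio of read counts for Id2 over Id3, Prdm1 over Bcl6 and Tbx21 over Eomes (vertical axes, a separate scale for each pair) in anti-PD-L1 libraries on the left and Control IgG libraries on the right, with symbols for the replicate number. Anti-PD-L1 replicate 1 is the highest library in each panel, at 8.92, 2.67 and 5.76.

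Genes known to be activated by T-bet or Eomesodermin mostly had fold changes above 0. Of 15 tested among 17 listed, 13 had a fold change above 0 and 2 below, where 48.1% of all tested genes were above 0. None of the 15 passed the threshold in edgeR, and 3 had an unadjusted p under 0.05, against 2.13% of all genes. The median log2 fold change was 0.26. Without Control IgG replicate 1 this median was 0.48, and without Control IgG replicate 3 it was 0.11. The anti-PD-L1 libraries exceeded all controls for 4 of them, against 7.73% of all genes, and were below all controls for 1, against 9.57%. That gene, Cxcr3, stood at 173 and 209 CPM in anti-PD-L1 replicates 1 and 2, against 259 to 263 CPM in the controls. The receptor chain Il12rb2 stood at 178 and 74.2 CPM in anti-PD-L1 replicates 1 and 2, against 29.4 to 67.4 CPM in the controls. Perforin, Prf1, stood at 2974 and 850 CPM in anti-PD-L1 libraries, against 514 to 812 CPM in controls, and granzyme B, Gzmb, at 11060 and 3593 CPM in anti-PD-L1 libraries, against 2907 to 3794 CPM in controls. The cytokine gene Ifng stood at 528 and 617 CPM in anti-PD-L1 libraries, against 420 to 611 CPM in controls. Relative to the control mean, the median gene stood at 0.30 and 0.28 on the log2 scale in the anti-PD-L1 libraries, with Control IgG replicate 1 at 0.22.

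Terminal effector genes, a list that shares 5 tested genes with the one above, had fold changes above 0 for 13 of 13 tested, where 48.1% of all tested genes were above 0. None passed the threshold, 5 had an unadjusted p under 0.05, against 2.13% of all genes, and the anti-PD-L1 libraries exceeded all controls for 3, against 7.73%. The median was 0.54, with 0.19 when anti-PD-L1 replicate 1 was left out and 0.98 when replicate 2 was. The chemokine receptor Cx3cr1 stood at 93.4 and 46.9 CPM in anti-PD-L1 libraries, against 23.5 to 42.1 CPM in controls. Klrg1, the surface marker that defines short-lived effector cells, was low in every library, at 2.13 and 7.0 CPM in anti-PD-L1 libraries, against 2.38 to 7.15 CPM in controls. Relative to the control mean, the median terminal effector gene stood at 0.97 and 0.22 on the log2 scale in anti-PD-L1 replicates 1 and 2. Control IgG replicate 1 stood at 0.34, above anti-PD-L1 replicate 2. The summed natural killer cell markers were also highest in anti-PD-L1 replicate 1. Of their 75.0 CPM in that library Fcer1g made up 63.5, while Tyrobp and Klrb1c lay within the control range. The part of such cells was not tested.

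Genes known to be repressed by Blimp-1 had fold changes below 0 for 12 of 12 tested, with a median of -0.50. Of all tested genes 48.1% were above 0. None of the 12 passed the threshold and none had an unadjusted p under 0.05 in edgeR, against 2.13% of all genes. The anti-PD-L1 libraries were below all controls for 3, against 9.57% of all genes. Relative to the control mean, the median gene stood at -1.39 in anti-PD-L1 replicate 1, while replicate 2 had 0.13. Prdm1 lay above all controls in both of these libraries, and a link between it and the list was not tested. The growth cytokine Il2 stood at 2.97 and 12.9 CPM in anti-PD-L1 libraries, against 11.9 to 27.4 CPM in controls, and the chemokine receptor Ccr6 at 1.39 and 1.12 CPM in anti-PD-L1 libraries, against 1.99 to 7.47 CPM in controls. With anti-PD-L1 replicate 1 left out, the median of the list was 0.11, and with replicate 2 left out -1.499.

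Of memory and progenitor genes, 15 of 16 tested had fold changes below 0, where 48.1% of all tested genes were above 0. In this list 8 genes are also on the list of genes repressed by Blimp-1. The median was -0.28, 1 gene had an unadjusted p under 0.05 in edgeR, against 2.13% of all genes, and none passed the threshold. The anti-PD-L1 libraries were below all controls for 5, against 9.57% of all genes. Dapl1, a marker of naive and memory cells, stood at 9.45 and 44.9 CPM in anti-PD-L1 libraries, against 65.8 to 98.3 CPM in controls. Slamf6, a receptor on progenitor cells, stood at 24.1 and 87.5 CPM in anti-PD-L1 libraries, against 91.8 to 149 CPM in controls. The factor Lef1, a relative of TCF-1, stood at 26.5 and 28.5 CPM in anti-PD-L1 libraries, against 31.3 to 45.8 CPM in controls. The median gene stood at -1.62 in anti-PD-L1 replicate 1, while replicate 2 had 0.35, and the median of the list was 0.25 without replicate 1 and -1.66 without replicate 2.

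Tissue residency genes were split, with 5 of 10 tested above 0 and 5 below, a median of 0.11, and no gene whose groups did not overlap. That median was 0.22 with anti-PD-L1 replicate 1 left out, -0.77 with anti-PD-L1 replicate 2 left out, -0.06, 0.04 and 0.26 with Control IgG replicates 2, 3 and 1 left out, and 0.54 without both libraries numbered 1. The chemokine receptor Cxcr6 stood at 1607 and 723 CPM in anti-PD-L1 libraries, against 534 to 784 CPM in controls, the integrin Itga1 at 31.2 and 19.4 CPM in anti-PD-L1 libraries, against 11.6 to 20.2 CPM in controls, and Cd101 at 39.6 and 23.9 CPM in anti-PD-L1 libraries, against 18.01 to 29.1 CPM in controls. Of the 18 receptors and signalling factors upstream of the members, 10 were above 0 and 8 below, with a median of 0.07, and the anti-PD-L1 libraries exceeded all controls for 4, against 7.73% of all genes. This list shares 2 tested genes, Il12rb2 and Il2rb, with that of T-bet and Eomesodermin targets. Both were counted there too as exceeding all controls. Leaving out 1 library gave medians of 0.065 to 0.239. The 4 included the receptor chain Tgfbr2, at 193 and 165 CPM in anti-PD-L1 libraries against 101 to 130 CPM in controls, and the interleukin-2 receptor chain Il2rb, at 2228 and 1293 CPM in anti-PD-L1 libraries against 972 to 1275 CPM in controls. Of 11 tested family members and partners, 7 were above 0 and 4 below, with a median of 0.12 that was 0.44 and -0.15 with anti-PD-L1 replicate 1 or 2 left out and -0.09, 0.28 and 0.24 with Control IgG replicate 1, 2 or 3 left out. The anti-PD-L1 libraries exceeded all controls for 2 of them, against 7.73% of all genes, the Runx paralogs Runx2, at 97.8 and 102 CPM in anti-PD-L1 libraries against 60.2 to 78.9 CPM in controls, and Runx1, at 22.1 and 27.8 CPM in anti-PD-L1 libraries against 15.1 to 18.2 CPM in controls. The E protein gene Tcf12, a partner of the Id proteins, stood at 29.8 and 33.4 CPM in anti-PD-L1 libraries, against 33.3 to 48.3 CPM in controls. No gene of these 3 lists passed the threshold in edgeR, and 1, 2 and 0 had an unadjusted p under 0.05, against 2.13% of all genes. Of all tested genes 48.1% had a fold change above 0.

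**Figure D5:**
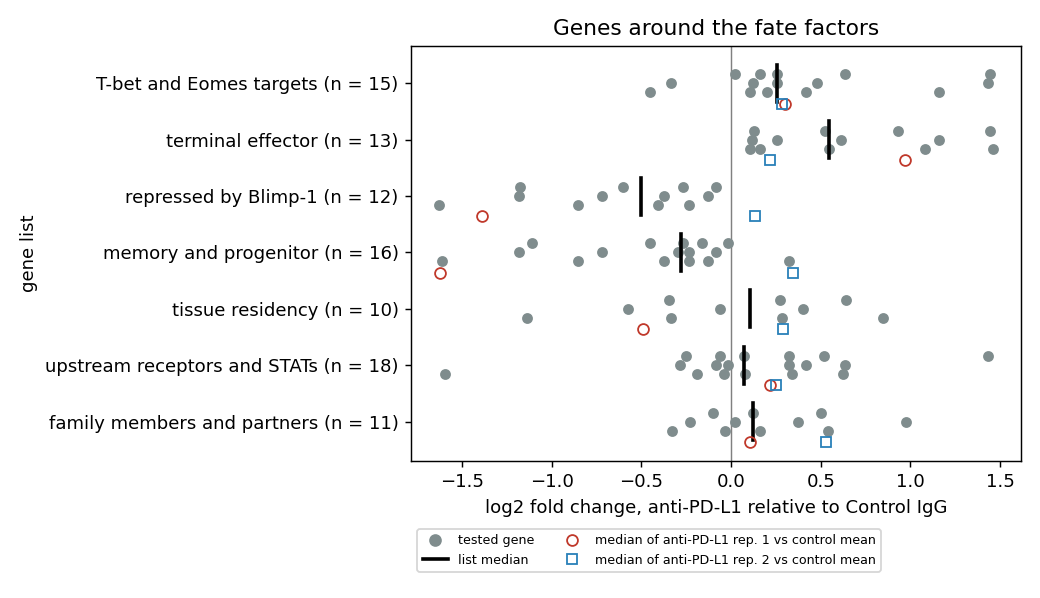
Log2 fold change of anti-PD-L1 relative to Control IgG (horizontal axis) for the tested genes of 7 lists around the factors (grey), with the list median (black line) and the median gene of anti-PD-L1 replicate 1 (red circle) and replicate 2 (blue square) relative to the control mean. The genes repressed by Blimp-1 and the memory and progenitor genes have medians of -1.39 and -1.62 in replicate 1 and of 0.13 and 0.35 in replicate 2.

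The genes whose profile over the 5 libraries lay nearest to each of 4 members were taken from 4661 tested genes whose mean log2 CPM reached 5, by the root mean square difference of centred log2 CPM. Nearest to Prdm1 were the calcium-binding protein gene S100a11, at a difference of 0.03, the plakophilin Pkp3, at 0.03, and the phosphatase Ubash3b, at 0.08. Nearest to Id2 were S100a6, at 0.06, Cxcr6, at 0.07, and the galectin Lgals1, at 0.08, which stood at 3048 and 1301 CPM in the anti-PD-L1 libraries, against 1031 to 1260 CPM in the controls. Nearest to Eomes were Hmgn1, at 0.18, Cd83, at 0.20, and Samd3, at 0.20. Nearest to Tbx21 were Ncaph2, at 0.02, Mavs, at 0.03, and Otub1, at 0.03. With 5 libraries many genes come close to any profile, and the measure is a description.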

How the data were processed

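RNA sequencing of 5 pools of sorted cells was analysed. Poly(A) RNA of 5000 to 30000 sorted cells per sample was amplified by 8 PCR cycles after a variant of the Smart-seq2 method, and tagmented libraries by 12 cycles, per the labels' protocols, a chemistry that marks neither strand nor molecule. The values are raw whole-number read counts per gene, deposited by the authors. TopHat, HTSeq and mouse build mm10 are named in the submitters' processing notes, with tool versions and annotation not given in the sources used here. Lines for reads without a feature (7.46% to 15.2% of counts) and ambiguous reads (1.38% to 1.51%) entered neither library sizes nor tests.

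Groups and replicate numbers came from the labels. Every pair of libraries differed beyond counting noise, with chi-square values of 19.2 to 92.3 per degree of freedom. The test was that of edgeR 4.0.16, run in R 4.3.3 (quasi-likelihood F-test, two-sided, TMM, filterByExpr with its default minimum count and total, 10 and 15, Benjamini-Hochberg over 11299 genes, threshold 0.05). It was also run on simulated data with changes planted only in genes above the median level. What it would find for genes of lower level, or for changes smaller than those planted, was not tested. The standard error is the fold change divided by the square root of F. Log2 CPM used a prior count of 2, and marker sums are per library total. Intervals are exact Clopper-Pearson at 95% and cover counting error only. Alternatives were DESeq2 1.42.0, limma-voom 3.58.1, other scaling, no filter, a replicate block and libraries left out. Positions and exon lengths are from GENCODE on GRCm38, the assembly mm10 denotes, and promoters from RefSeq.

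The members, the 7 gene lists, the markers and the tests were chosen with earlier results of these data known. Named are the 10 members, the 3 tested genes of smallest p per list, and for 4 members the 3 nearest profiles, predicted genes passed over. Some genes that this rule or a marker list covers are not reported here by name. Ifng, Klrg1, Cxcr3 and Lgals1 were singled out after their values were seen. Zfp683, on the residency list, was not analysed here. Neutrophil (summed level 1.55 and 1.17 CPM in the anti-PD-L1 group against 0.244 to 0.901 CPM in the controls), CD4 T cell (182 and 287 against 252 to 349), fibroblast or endothelium (28.6 and 48.2 against 39.5 to 58.2) and erythroid markers (3.71 and 21.2 against 0.601 to 7.91) were also summed. Most of the CD4 T cell sum was Tnfrsf4, at 164 and 261 CPM in anti-PD-L1 libraries, against 235 to 323 CPM in controls. Cd4 itself stood at 0 and 0.312 CPM in anti-PD-L1 libraries, against 0 to 1.3 CPM in controls. Most of the fibroblast or endothelium sum was Pecam1, at 28.5 and 47.9 CPM in anti-PD-L1 libraries, against 39.2 to 57.6 CPM in controls. Col3a1 and Cdh5 were at 0 in every library.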

Additional observations from a re-analysis of the deposited data

How the results depend on the processing

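Under all 12 alternatives none of the 10 factors passed the threshold, and Prdm1, Id2, Id3 and Runx3 had the same sign throughout, Runx3 at only 0.01 without both libraries numbered 1. Genes past the threshold over the whole table numbered 4 in DESeq2, 5 without a low-count filter and 1 without both libraries numbered 1, against 0 in the edgeR test and whenever 1 library was left out, and none of them was a member. The number of members at an unadjusted p under 0.05, 2 in the edgeR test with all libraries, was 1 to 5 with 1 library left out, the 5 (Prdm1, Id2, Id3, Eomes and Bcl6) coming from the fit without anti-PD-L1 replicate 2. Without anti-PD-L1 replicate 1 the 1 was Bcl6, at an unadjusted edgeR p of 0.0197, with Prdm1 at 0.249 and Id2 at 0.535. Without both libraries numbered 1 they were Bcl6, Id3 and Bhlhe40. Id3 joined Prdm1 and Id2 in DESeq2, in limma-voom, without a low-count filter and under the replicate block. Leaving out 1 library gave log2 fold changes from -0.12 to 0.15 for Tbx21, from -1.95 to 0.10 for Eomes, from -0.02 to 0.71 for Zeb2, from -0.997 to 0.96 for Bcl6, from -0.35 to 0.48 for Bhlhe40, from -0.79 to 0.56 for Rora, from 0.39 to 1.29 for Prdm1, from 0.20 to 1.48 for Id2, from 0.11 to 0.65 for Runx3 and from -3.96 to -0.82 for Id3. Other reversals were Tbx21 at -0.022 with library totals only and -0.043 without both libraries numbered 1, Rora at -0.056 in limma-voom, and Eomes at 0.27 without both libraries numbered 1. The causes were not tested. With the replicate number as a block, Bcl6 was at -0.017, Rora at -0.016, Prdm1 at 0.88, Id2 at 0.80 and Id3 at -2.11, and no factor passed the adjusted threshold, while Id3 had the smallest unadjusted p, 0.005. The deviations of same-numbered libraries from their group means correlated across genes at 0.33 and 0.37. With 2 anti-PD-L1 libraries, the deviations of one are the negative of the other's. The 2 correlations are therefore not separate and cannot show a pairing for each number. With 2 pairs and no label for a shared day the libraries share only a number. Of 84 list medians under alternatives, 64 moved by less than the control SD and 20 by more. A fit without an anti-PD-L1 library assumes that the one left varies like the controls. The biological coefficient of variation of 41.1% and a median standard error of 0.38 limit what 2 against 3 libraries can show.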
